A study of Mus musculus with 4 samples.

Results

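The genes examined here are 10 that encode the DNA-binding protein CTCF, its paralog and the cohesin machinery, out of 26180 mouse genes with a curated RefSeq start site: Ctcf, Ctcfl, Smc3, Rad21, Stag1, Nipbl, Mau2, Wapl, Pds5a and Pds5b. They were chosen by name, with earlier results of these data known. For each gene every peak within 500 bp of a curated start site on mm10 was taken. Every peak from 5 kb upstream of the first start site to the end of the gene was taken as well. Chromatin accessibility had been measured by ATAC-seq, in which a transposase cuts open DNA, in visceral adipose tissue of 8-week-old CD-1 mice, an outbred stock. The 2 control libraries came from descendants of dams given sesame oil. The 2 BPA libraries came from descendants of dams that received the plasticiser bisphenol A by daily injection (50 mg/kg) from embryonic day 7.5 until day 13.5. The sampled mice were later descendants and were not injected themselves. Their generation is named differently in the labels and in the study's methods, and no sex or batch is labelled, so these remain unknown here. Values below are given for replicate 1 and then replicate 2 of each group. The study made the libraries as an independent set of CD-1 data in which to check variants.

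CTCF is a zinc finger protein that binds a long, fixed sequence motif and acts at chromatin boundaries. Cohesin is a ring of Smc1, Smc3, Rad21 and a Stag subunit that is loaded by Nipbl and Mau2, extrudes DNA into loops, stops at CTCF in the proper orientation and is taken off by Wapl together with the Pds5 proteins. Ctcf and cohesin are needed in nearly every cell, whereas Ctcfl, also called BORIS, has nearly the same zinc fingers and is known for its expression in male germ cells.

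Nearly all of the machinery was open in fat and Ctcfl was the exception. A promoter peak was present in all 4 libraries at 9 of the 10 genes, against 51.2% of all genes. Ctcfl had a promoter peak in no library, a state shared by 36.4% of all genes. Each library held peaks at the same 9 promoters. Over all genes a promoter peak was found for 56% and 55% in the controls and for 57.5% and 61.2% in the BPA libraries.

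The lists held between 72375 and 98060 peaks, and no read totals were given. The median pile-up of reads at the summits, solved from the fold and p-value of each peak, was 22 and 23 in the controls, 19 in BPA 1 and 38 in BPA 2. Peaks of BPA 2 were also the widest, with a median of 780 bp against 456 to 567 bp in the other 3 libraries. The labelled tissue was checked by promoter peaks at marker genes. All 7 adipocyte markers were open in every library and none of 3 hepatocyte markers was open in any. Endothelial markers differed between the groups, with 2 of 5 open in each control and 5 of 5 in each BPA library. Of 6 leukocyte markers, 1 was open in each control, 2 in BPA 1 and 3 in BPA 2. Of the 3 mesothelial markers 1 or 2, of the 3 epithelial markers 0 to 2 and of the 6 germ cell markers 0 to 2 were open per library. In bulk tissue, fewer cells of a type with an open site and less opening per cell cannot be told apart.

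The promoters of the open members were rich in CpG, and the sequences of 3 open start sites and of 1 start site without a peak are shown to make the contrast visible. Each run is the RefSeq window of 250 bases before to 50 after a start site on mm10 (GRCm38), on the strand of the gene, with every CpG in capitals. The libraries came from CD-1 mice, whose alleles can differ from these letters. Windows of 7 of the 10 members were matched, all but Ctcfl, Rad21 and Nipbl.
Ctcf, chr8:105636288-105636587, plus strand: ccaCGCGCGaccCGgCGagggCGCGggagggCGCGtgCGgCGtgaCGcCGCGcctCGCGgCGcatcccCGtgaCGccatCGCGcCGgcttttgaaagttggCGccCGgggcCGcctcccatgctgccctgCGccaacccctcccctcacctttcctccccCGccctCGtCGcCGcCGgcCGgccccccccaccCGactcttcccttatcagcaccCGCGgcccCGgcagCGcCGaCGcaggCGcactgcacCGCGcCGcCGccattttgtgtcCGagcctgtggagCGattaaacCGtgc
Stag1, chr9:100643198-100643497, plus strand: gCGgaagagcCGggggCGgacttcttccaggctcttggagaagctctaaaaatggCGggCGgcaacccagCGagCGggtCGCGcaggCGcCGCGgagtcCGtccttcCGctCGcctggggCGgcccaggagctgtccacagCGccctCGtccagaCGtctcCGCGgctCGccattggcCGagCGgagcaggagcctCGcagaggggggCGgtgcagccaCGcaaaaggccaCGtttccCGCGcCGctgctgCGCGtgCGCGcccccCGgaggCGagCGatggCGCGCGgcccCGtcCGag
Mau2, open start site, chr8:70042685-70042984, minus strand: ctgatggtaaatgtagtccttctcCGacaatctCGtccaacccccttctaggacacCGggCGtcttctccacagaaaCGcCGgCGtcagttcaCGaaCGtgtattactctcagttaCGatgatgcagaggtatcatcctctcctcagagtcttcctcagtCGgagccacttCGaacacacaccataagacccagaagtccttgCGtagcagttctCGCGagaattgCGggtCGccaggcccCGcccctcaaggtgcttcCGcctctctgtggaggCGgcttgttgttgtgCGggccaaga
Mau2, second start site, chr8:70029464-70029763, minus strand: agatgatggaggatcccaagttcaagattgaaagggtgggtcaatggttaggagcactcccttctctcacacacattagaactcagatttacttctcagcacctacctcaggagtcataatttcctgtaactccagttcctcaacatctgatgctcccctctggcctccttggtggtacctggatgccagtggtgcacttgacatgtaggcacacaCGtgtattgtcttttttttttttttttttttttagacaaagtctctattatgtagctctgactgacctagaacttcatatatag
The 300 bases of Ctcf hold 47 CpG, those of Stag1 43 and those of the open Mau2 start site 21. The second Mau2 start site holds 1.

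Over the 500 bp on either side of a start site, the ratio of observed to expected CpG was 0.960 at Ctcf, with 74.1% G+C. The other 8 open members had ratios between 0.877 at Rad21 and 1.12 at Pds5a. Ctcfl had a ratio of 0.412 with 62.5% G+C, so the paralogs differed more in CpG than in base content. When all genes were ordered by this ratio, taking the highest start site of each gene, and cut into 5 bins of 5236, all 9 open members fell in the highest bin. In that bin 92.3% of genes were open in all 4 libraries and 2.06% in none. Ctcfl fell in the middle bin, where 59.1% of genes were open in all 4 libraries and 23.6% in none. The lowest bin was open in all 4 libraries for 3.55% of genes.

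**Figure D1:**
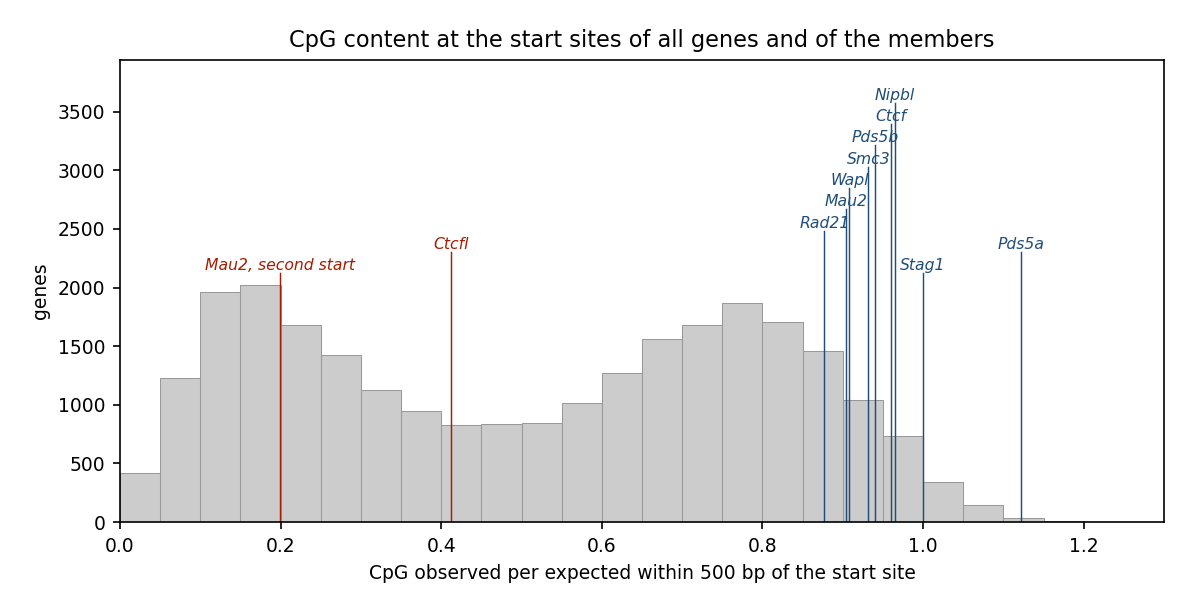
Histogram of the ratio of observed to expected CpG in the 500 bp on either side of the start site, counting the highest start site of each of 26180 genes, with lines at the start sites of the members. The 9 open members lie between 0.877 and 1.12 (blue), and Ctcfl at 0.412 and the second start site of Mau2 at 0.199 (red) lie to the left.

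Short motifs of promoter factors were searched on both strands in the 8 windows of the 7 matched members, which include both start sites of Mau2. The SP word GGGGCGGGG was found in the open window of Mau2 alone, the NFY word ATTGGC in Stag1 and Wapl and the E2F word TTTCCCGC in Stag1. Of all 32851 windows, 11.4% held the SP word, 14.7% the NFY word and 1.07% the E2F word. The NRF1 word GCATGCGC, the ETS word CCGGAAG, the YY1 word AAGATGGC, the CRE word TGACGTCA and the CTCF motif were in none of the 8 windows. They were in 2.71%, 8.86%, 2.75%, 1.79% and 0.557% of all windows, respectively.

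Ctcf, the gene of the insulator protein itself, was open in every library at very different ranks. Its single curated start site lies at chr8:105636538 on the plus strand, and the peak over it ranked at 9.20% and 19.65% of the list in the controls and at 7.40% and 1.63% in the BPA libraries. The rank is the share of the library's peaks with a −log10 q-value at least as high. A low percentage is a strong peak in that sense only, since the q-value sets the summit against the background nearby. The pile-up at the Ctcf summit was 66, 48, 107 and 518 reads in the same order of libraries. In control 1 its 66 reads stood over a background of 11.9. The Nipbl promoter there had 69 reads over 19.6 and ranked at 18.6%. Both BPA libraries ranked Ctcf better than both controls, as they did 40.6% of genes open in all 4 libraries. The ranks of Ctcf within a group lay far apart. The control mean was 14.4% ± 7.39 and the BPA mean 4.51% ± 4.08 (SD, n = 2 each).

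The Ctcf peak was 1942 and 1370 bp wide in the controls and 1499 and 2014 bp wide in the BPA libraries, and 1335 bp were common to all 4. The widths of the groups overlapped. Summits lay 29 to 227 bp downstream of the start site. The summit of the strongest peak was in the untranslated part of exon 1. The peak also covered a start site of Gm5914, a non-coding gene on the opposite strand, 812 bp from that of Ctcf.

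The genes with promoter ranks closest to those of Ctcf over the 4 libraries were Ube2b, Tnpo2 and Ptpn9. The largest difference in any library was 1.17 percentage points for Ube2b, a ubiquitin-conjugating enzyme, 1.19 for Tnpo2, a nuclear import receptor, and 1.36 for Ptpn9, a tyrosine phosphatase. Of the 13404 genes open in all libraries, leaving out those that share the Ctcf peak, 19 lay within 2 points of Ctcf in each library and 455 within 5.

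Ctcfl was closed at its start site and open around it. The start site lies at chr2:173119525 on the minus strand, and the nearest peak was 1972 and 1940 bp away in the controls and 2243 and 1866 bp away in the BPA libraries. The distances differed little between libraries and all exceeded the 500 bp of the promoter. Mau2 had a second start site further from any peak, and every other curated start site of the members lay inside a peak in each library.

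The Ctcfl window of 30.9 kb held 5 open regions, of which 4 were open in all libraries. Of all genes without a promoter peak, 18.4% had a region open in all 4 libraries in their window. The region nearest to the start site, at chr2:173116428-173117659, had its strongest summit in coding exon 3, 2347 bp into the gene. It ranked at 46.6% and 33.0% in the controls and at 58.1% and 53.0% in the BPA libraries, with pile-ups of 24, 34, 20 and 47 reads. A region in intron 5 at chr2:173110270-173111711 ranked at 78.9%, 56.1%, 72.1% and 53.9%, and a region in intron 7 at chr2:173106940-173107649 at 61.7%, 45.3%, 89.5% and 46.9%, in the same order. Neither ranked better than 45.3% in any library. The fifth region, at chr2:173111757-173112371, was found in control 2 only.

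A last region lay upstream of Ctcfl. The region at chr2:173124109-173124991 had its summit 5010 bp before the Ctcfl start site and lay within 500 bp of the start site of Ctcflos, a non-coding gene on the opposite strand, which the peaks of control 2 and BPA 2 covered and those of control 1 and BPA 1 did not. It ranked at 52.7% and 16.0% in the controls and at 79.4% and 62.9% in the BPA libraries. In control 2 it was the best ranked peak of the Ctcfl window, and in the other libraries a region inside the gene was. The promoter window of Ctcflos is printed because it is a start site beside Ctcfl with a peak within 500 bp in all 4 libraries, and it holds 3 CpG in 300 bases.
Ctcflos, chr2:173124499-173124798, plus strand: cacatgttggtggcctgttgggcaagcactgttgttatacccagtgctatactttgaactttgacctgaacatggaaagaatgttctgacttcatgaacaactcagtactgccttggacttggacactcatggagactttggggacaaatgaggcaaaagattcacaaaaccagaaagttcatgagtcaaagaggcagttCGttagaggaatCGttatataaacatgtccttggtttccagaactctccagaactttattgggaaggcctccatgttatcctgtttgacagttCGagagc
The CpG ratio over 500 bp on either side of this start site was 0.193, below that of Ctcfl.

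**Figure D2:**
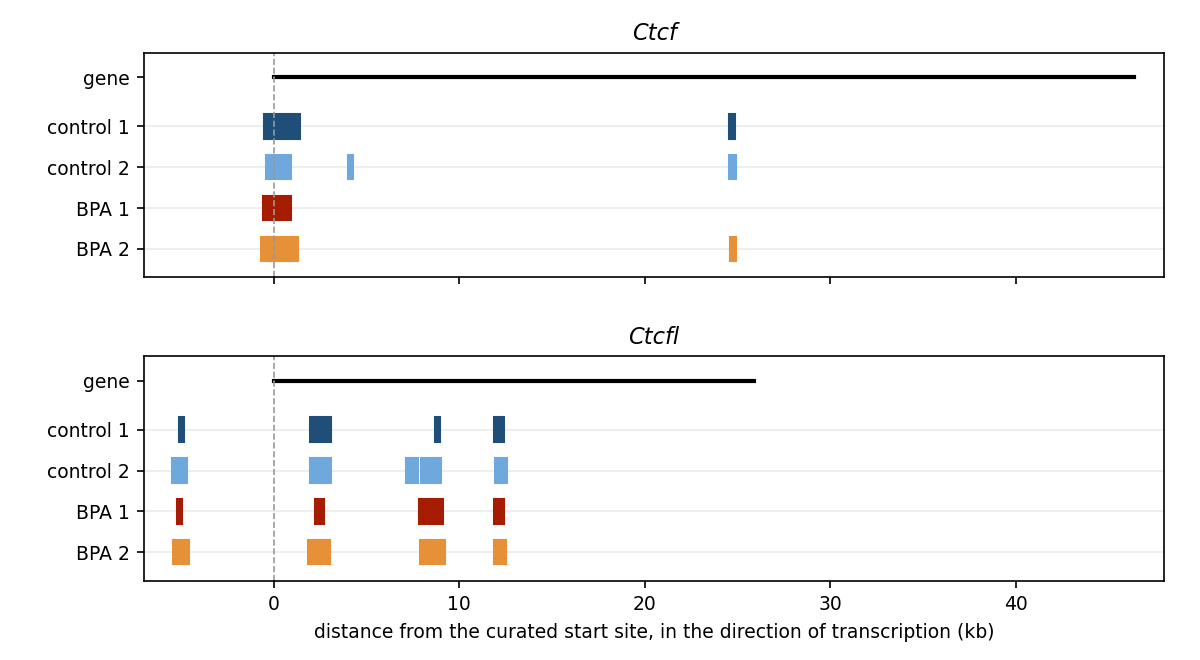
Peaks of each library (coloured boxes) in the windows of Ctcf and Ctcfl, by distance from the curated start site in kb in the direction of transcription, with the gene as a black bar and the start site as a dashed line. All 4 libraries have a peak over the Ctcf start site, and the nearest Ctcfl peak is 1866 to 2243 bp away.

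Regions away from the promoter were sparser at Ctcf than at Ctcfl. Ctcf had 3 open regions in 51.4 kb, of which only the promoter was open in all libraries. An intron 1 region was found in control 2 only, and an intron 2 region at chr8:105661057-105661456 was found in 3 libraries at ranks between 62.4% and 96.6%. Away from member start sites Ctcf had 2 regions and Ctcfl 5, including the region near Ctcflos. With promoters counted, Ctcfl had 1.62 regions per 10 kb against 0.584 for Ctcf and 1.46 for Rad21. Set against the Ctcf promoter of the same library, the best peak of the Ctcfl window ranked poorer in control 1 and both BPA libraries. In control 2 it ranked better, at 16.0% against 19.65%, but that peak lay upstream of Ctcfl and covered the Ctcflos start site. The best control 2 peak inside the Ctcfl gene ranked at 33.0%, poorer than the Ctcf promoter.

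Of the cohesin ring, Smc3 and Stag1 ranked better than the median open promoter in every library, and Rad21 in all but BPA 1. Smc3, the coiled-coil ATPase of the ring, has its start site at chr19:53600396, and its promoter peak ranked at 0.725% and 3.71% in the controls and 1.53% and 0.281% in the BPA libraries. The groups overlapped, and in BPA 2 only 276 of 98060 peaks had a −log10 q-value at least as high. The Smc3 peak was among the most constant in width, at 1498, 1453, 1340 and 1340 bp. Both BPA peaks were narrower than both control peaks, as at 14.9% of genes open in all 4 libraries.

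Rad21, the kleisin that closes the ring, has its start site at chr15:51991760 and ranked at 1.92% and 4.15% in the controls and 11.3% and 3.64% in BPA 1 and BPA 2. In BPA 1 it ranked poorer than in the other 3 libraries and poorer than the median open promoter, at 8.58%, and the groups overlapped. The BPA peaks were again narrower, at 1225 and 1542 bp against 1610 and 1638 bp. Rad21 was the only member besides Ctcfl with an open region in all 4 libraries away from member start sites. This region, at chr15:51985170-51985844 in intron 1, was 6255 bp downstream of the start site and ranked between 45.7% and 71.0%.

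Stag1, a subunit that binds the kleisin, has its start site at chr9:100643448 and ranked at 4.77% and 4.41% in the controls and at 2.18% and 2.46% in the BPA libraries. The ranks of each group lay close together and did not overlap, with a control mean of 4.59% ± 0.258 and a BPA mean of 2.32% ± 0.197 (SD, n = 2 each). The peak was wide in every library, at 2782 and 2385 bp in controls and 2223 and 2213 bp in BPA. It was wider than 92.4% to 99.3% of promoter peaks of the same library. At Stag1 the BPA peaks were thus better ranked and narrower. Of the genes open in all 4 libraries, 40.6% ranked better in both BPA libraries and 14.9% had narrower peaks in both.

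The loader genes differed in rank in every library. Nipbl, the loader subunit that drives loop extrusion, has its start site at chr15:8444463 and was the poorest ranked of the open members in every library. It ranked at 18.6% and 26.0% in the controls and at 14.9% and 7.80% in the BPA libraries. Its peak was the widest in 3 libraries, measuring 3850 and 1898 bp in the controls, where Stag1 exceeded it in control 2, and 2497 and 3238 bp in the BPA libraries. The 4 summits were spread over 947 bp. Nipbl thus had the broadest and lowest ranked promoter peak of the members.

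Mau2, the partner of Nipbl in the loader, was the best ranked member in both controls but not in the BPA libraries. It ranked at 0.275% and 0.878% in the controls and at 3.26% and 1.74% in the BPA libraries. Its peak was 946 and 949 bp wide in the controls and 1192 and 1435 bp in the BPA libraries, the narrowest of the members in control 1 and in BPA 1. Mau2 was the only member whose BPA ranks were both poorer than its control ranks, as at 18.7% of genes open in all 4 libraries. The BPA mean was 2.50% ± 1.07 and the control mean 0.577% ± 0.427 (SD, n = 2 each). The poorer rank is relative to the other peaks of each list. The −log10 q-value at Mau2 was higher in BPA, at 94.0 and 286.6 against 71.7 and 71.8. So was the pile-up, at 113 and 383 reads against 101 and 94. When peaks were ranked by width instead, the difference in rank at Mau2 turned, since its BPA peaks were wider. The open start site at chr8:70042734 lies 53 bp from that of Sugp1, a splicing-related gene on the opposite strand, so the peak belongs to both. The second start site at chr8:70029513, with a CpG ratio of 0.199, had no peak within 500 bp, and the nearest was 7387 to 12812 bp away.

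The release and regulatory genes were open as well. Wapl, which unloads cohesin, has its start site at chr14:34673928 and ranked at 3.51% and 2.52% in controls and 1.66% and 3.36% in BPA. Its ranks and widths of 1385 to 1606 bp overlapped between groups. Its peak also covered the start site of 5830448L01Rik, a non-coding gene on the opposite strand, 740 bp away.

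Pds5a and Pds5b bind cohesin and act in both its release and its maintenance. Pds5a has its start site at chr5:65698236 and ranked at 8.32% and 9.28% in controls and 14.0% and 5.27% in BPA. The BPA ranks lay on both sides of the control ranks. The peak was 2049, 2098 and 2078 bp wide in control 1, BPA 1 and BPA 2 and 1155 bp wide in control 2. Pds5b has its start site at chr5:150673827 and ranked at 3.31% and 4.72% in controls and 2.90% and 1.65% in BPA. The groups did not overlap, with both BPA ranks better, as at 40.6% of genes open in all 4 libraries. The summits of Pds5b lay within 7 bp of each other, the tightest of the members. Its peak was 1156 and 726 bp wide in controls and 1253 and 1524 bp in BPA.

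**Figure D3:**
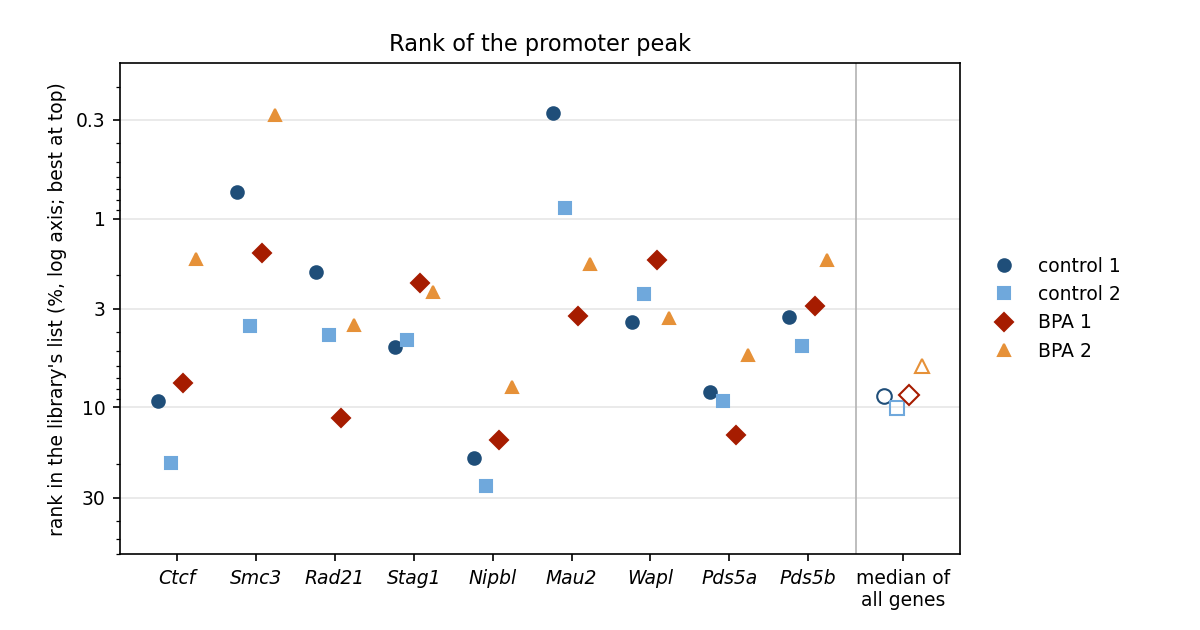
Rank of the best promoter peak of each open member in each library, as a percent of the library's peaks on a log axis with the strongest peaks at the top, beside the median of the 13404 genes open in all 4 libraries (open symbols). Mau2 is highest in both controls and Smc3 in both BPA libraries, Nipbl lies between 7.80% and 26.0% and is lowest in each library, and Ctcfl has no promoter peak to plot.

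The median of the 9 open members ranked better than the median open promoter in each library. Their median rank was 3.51% and 4.41% in the controls and 3.26% and 2.46% in the BPA libraries, beside medians of 8.65%, 10.0%, 8.58% and 6.04% over the 13404 genes open in all 4 libraries. Smc3, Stag1, Mau2, Wapl and Pds5b were in the best 10% of all 4 lists, which is 5 of 10 members against 20.2% of all genes. Only a gene open in all 4 libraries can reach this. Among such genes it is 5 of 9 members beside 5299 of 13404 genes. The limit of 10% was set after the values were seen. The members' median widths of 1610, 1453, 1386 and 1542 bp were above those over all open genes, at 1241, 1003, 1035 and 1331 bp.

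**Figure D4:**
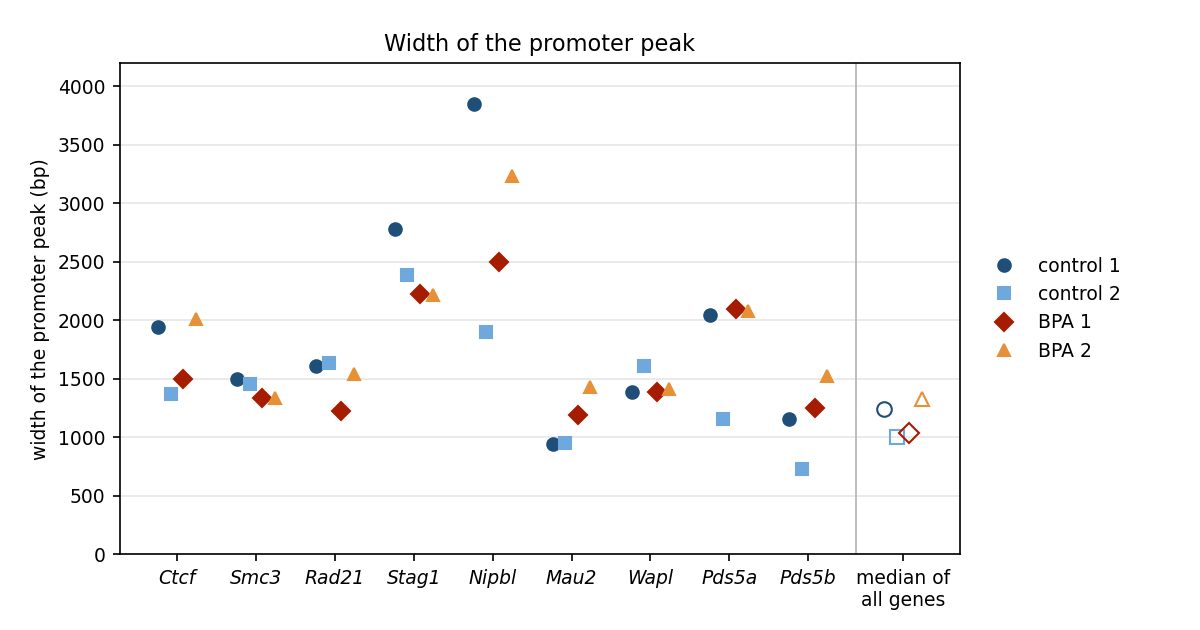
Width in bp of the best promoter peak of each open member in each library, beside the median of the 13404 genes open in all 4 libraries (open symbols). Stag1 and Nipbl are widest, and the widths of Mau2, Pds5a and Pds5b in control 2 (949, 1155 and 726 bp) are below those of both BPA libraries.

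Between the groups the members differed in both directions in rank and width, and in 1 direction in pile-up scaled by the lowest background of the library. Both BPA libraries ranked better than both controls at Ctcf, Stag1, Nipbl and Pds5b, 4 of 9 members, against 40.6% of all open genes. Both ranked poorer at Mau2, 1 of 9, against 18.7%. Peaks were narrower in both BPA libraries at Smc3, Rad21 and Stag1, 3 of 9 against 14.9%, and wider at Mau2, Pds5a and Pds5b, 3 of 9 against 22%. The promoter pile-up, as a multiple of the lowest background of its library, was higher in both BPA libraries at all 9 members, against 95.8% of all open genes, and lower at 0, against 0.515%. At Ctcf it was 20.5 ± 3.79 in controls and 114 ± 31.0 in BPA (SD, n = 2 each). The lowest background itself was 2.85 and 2.70 in the controls, 1.16 in BPA 1 and 3.80 in BPA 2. Without this scaling the groups overlapped at Rad21, with 96 and 78 reads in the controls and 66 and 332 in BPA. At every other open member the unscaled pile-up was higher in both BPA libraries, at Pds5a by little in BPA 1 (68 reads against 65 and 62). The shares of members for pile-up and for better rank are near the background, and those for width rest on 3 genes each. The endothelial markers moved with the groups as given above, and the median pile-up stood apart in BPA 2. Their part in these values was not tested. The median difference in rank over the 9 members was -1.31 percentage points, and between -2.13 without BPA 1 and -0.995 without control 2 when 1 library was left out. It was -2.09 without control 1 and -1.12 without BPA 2. The median rank over all open genes also differed, at 8.65% and 10.0% in the controls and 8.58% and 6.04% in BPA. The smallest two-sided p that an exact permutation of 4 libraries in 2 groups allows is 0.333, so no test between groups was made.

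Replicate peaks shared most of their length. In the controls, the peaks shared at least 50% of the wider one at every open member except Nipbl, with 49.3%, and from 56.4% at Pds5a to 96.6% at Rad21 at the others. Over all open genes 86.3% reached 50%. In BPA all 9 passed, with 74.4% to 99.3%, against 91.3% of all open genes. In control 2 the promoter region was called as 2 peaks at Nipbl, of 926 and 1898 bp with 330 bp between them, and as 2 at Pds5a, of 670 and 1155 bp with 196 bp between them. The widths and overlaps given for control 2 at these genes are those of the better ranked peak alone, and the wider BPA peaks at Pds5a are set against it.

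Away from promoters few regions were open in all libraries. The windows covered 998 kb and held 70 regions, of which 14 were open in all 4 libraries, against 30.4% of the regions in the windows of all genes. A further 33, or 47.1%, were found in 1 library only, against 35.6%. Regions in both BPA libraries and neither control numbered 5 of 70, against 9.59%, and those in both controls and neither BPA library 1 of 70, against 4.62%. Of the 14 shared regions, 9 were the member promoters. Among the 61 away from member start sites, 5 were open in all 4 libraries, 4 at Ctcfl and 1 at Rad21. Over all gene windows 20% of the regions away from any start site were. That share leaves out regions within 500 bp of any start site, whereas the 5 include the region near Ctcflos. Without the 5 kb upstream the windows held 69 regions, of which 13 were open in all 4 libraries. Stag1, whose gene is the longest, had 18 regions away from member start sites, none of them open in all 4 libraries. Of the 33 in 1 library, 17 were of control 2.

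The regions in both BPA libraries only lay in introns of Stag1, Nipbl and Pds5a and ranked at 49.6% to 90.8%. In Nipbl, the region at chr15:8340230-8341060 in intron 11 ranked at 72.0% in BPA 1 and 49.6% in BPA 2, and that at chr15:8416791-8417163 in intron 1 at 69.9% and 86.9%. In Pds5a, the region at chr5:65673734-65674398 in intron 2 ranked at 90.8% and 66.5%. In Stag1 the ranks were 89.4% and 62.3% at one region and 87.1% and 90.1% at the other. The region in both controls only, in intron 1 of Stag1, ranked at 89.4% and 95.7%. Pile-ups at these 6 regions were 8 to 31 reads.

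**Figure D5:**
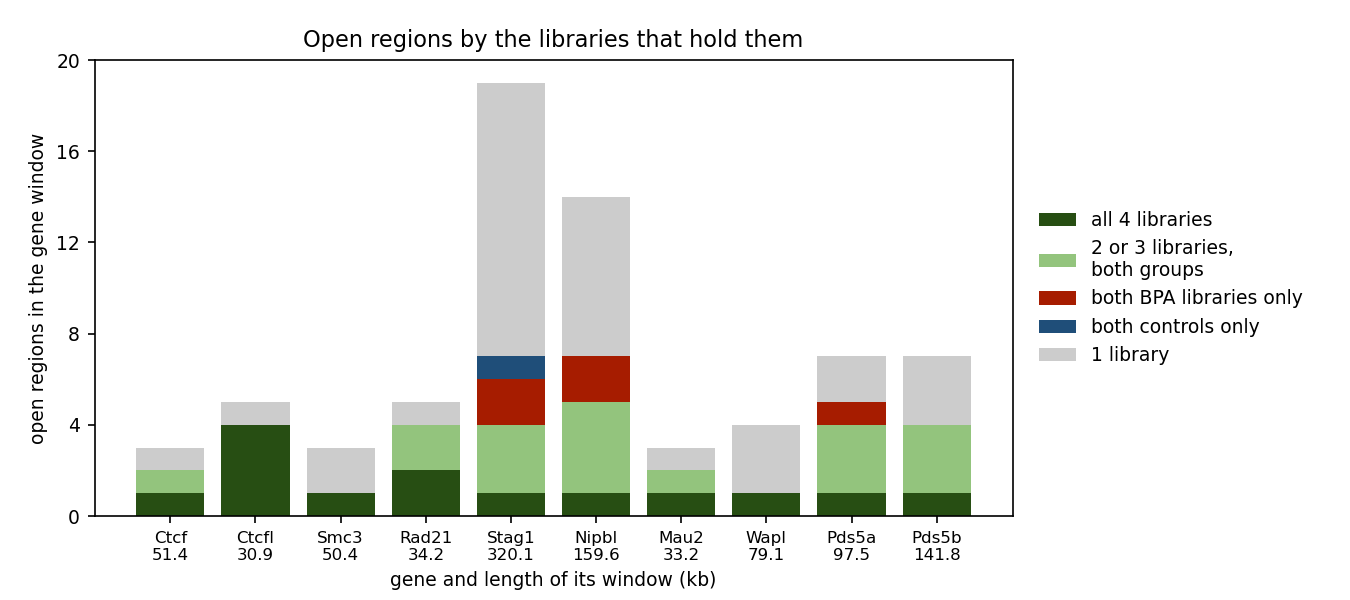
Number of open regions in the window of each member (5 kb upstream to gene end), stacked by the libraries that hold them, with the window length in kb under each name. Ctcfl has 4 regions open in all 4 libraries and Rad21 has 2, while the other members have 1 each.

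The CTCF motif itself was looked for at the open regions of these genes. It was found within 100 bp of the strongest summit in 1 of the 70 member regions, or 1.43%, beside 2.71% of 147153 regions over the genome. Among regions open in all 4 libraries it was in 0.787% of 12445 at promoters and 4.58% of 26276 away from them. The member region that held it lay in intron 1 of Pds5b at chr5:150702672-150703306, 29071 bp from the start site, and was found in control 1 only, at a rank of 29.4% with a pile-up of 22 reads. The motif is at chr5:150702891-150702902 on the minus strand and is printed on that strand, with the 12 bases of the motif in capitals and the summit inside them.
Pds5b intron 1, CTCF motif: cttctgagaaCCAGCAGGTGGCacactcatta
A match to these letters is not a measurement of binding.

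Other genes of the pathway were read from a list of 31, written with earlier results of these data known. A promoter peak was found in all 4 libraries at 28 of them, against 51.2% of all genes. These included both partners of the ring on chromosome X, all 6 genes of acetylation and protection, both of cleavage, all 7 chromatin partners and all 10 of condensin and Smc5/6. Smc1a, the partner of Smc3 in the ring, ranked at 6.22% and 13.4% in controls and 7.83% and 5.48% in BPA. Stag2, the alternative to Stag1, ranked at 38.7% and 18.8% in controls and 14.5% and 8.86% in BPA, poorer than Stag1 in every library. Its peak was 479 and 463 bp wide in controls and 1461 and 2388 bp in BPA.

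The 3 genes that fell short were meiotic cohesin genes, which like Ctcfl are known for germ cells. Rec8 and Rad21l, meiotic kleisins, had no promoter peak in any library. Smc1b, the meiotic form of Smc1, had a peak in control 2 at 97.3% and in BPA 2 at 92.1%, near the bottom of both lists, and the start site of Ribc2 is 141 bp away. Stag3, the meiotic Stag, was open in all 4 libraries at ranks of 6.07% to 8.28%, and the start site of Gpc2 is 572 bp away. The CpG ratio was 0.243 at Rad21l, 0.547 at Rec8, 0.704 at Smc1b and 0.754 at Stag3.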

How the data were processed

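ATAC-seq libraries of 4 samples in 2 groups were read as 1 peak list each. The authors trimmed reads with Trim Galore, mapped them with Bowtie2 2.3.5.1 to mm10, kept uniquely mapped reads, removed duplicates with SAMtools and called peaks on each library with MACS2 2.2.7.1 (versions from the submitters' processing notes). The deposited score was derived from the −log10 q-value, the deposited fold compared summit pile-up with the background nearby, the deposited −log10 p-value and q-value were those of the caller, and a further deposited column placed the summit by its distance in bp from the peak's start. No peak had a q-value above 0.05.

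Start sites came from 45756 curated RefSeq transcripts (GRCm38). A promoter peak overlapped the 500 bp on either side of a start site, and the peak with the highest −log10 q-value was used. Peaks of the 4 libraries that overlapped were merged into regions. Whole pile-ups were solved from fold and p-value and matched within 1e-04 for 100% of peaks. The solving of pile-ups and the counting of genes with a promoter peak were tested on simulated data. The other steps were not. CpG ratios and motifs were computed from the reference with samtools 1.23.1 and Python 3.11.15, numpy 2.4.6 and pandas 2.3.3. The lists hold no depths, so no interval was computed.

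The genes named were all members, pathway genes without a peak in all 4 libraries, the meiotic cohesin genes, Smc1a and Stag2, the 3 genes nearest to Ctcf in rank, and genes sharing a member promoter peak. Members and lists were chosen with earlier results of these data known. The alternatives were a wider promoter, a summit inside the promoter, a stricter q-value, the best 20000 peaks, predicted transcripts, other ranks and widths, other windows and each library left out. The replicates were not stated to come from separate litters, and the replicate number in the name of the BPA 2 list was not the labelled one.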

Additional observations from a re-analysis of the deposited data

How the results depend on the processing

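Of 108 values recomputed under other settings, 94 stayed within the spread between replicates or within 1.5 times the count and 14 moved. The presence of a promoter peak at 9 members and its absence at Ctcfl did not change with a 1000 bp promoter or with peaks with a −log10 q-value minimum of 5. With summits inside the promoter Nipbl fell out in control 1, and among the best 20000 peaks it fell out in control 2, leaving 8 members. With predicted transcripts included, an alternative added after the data were seen, Ctcfl gained a promoter peak in control 2 at a predicted start site, and the count of libraries at Ctcf less those at Ctcfl fell from 4 to 3.

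The median difference in rank between BPA and control was -1.31 percentage points and became -7.50 when ranks were taken among promoter peaks. The latter is a percent of a shorter list, so the sizes are not on the same scale. Ranked by width, the difference was 0.15 in place of -9.91 at Ctcf and -8.30 in place of 1.93 at Mau2. With a −log10 q-value minimum of 5 the gene windows held 36 regions in place of 70, with 1 in both BPA libraries only and 0 in both controls only. With equal numbers of 72375 peaks per library the counts for BPA only and controls only were 3 and 2. Leaving out 1 library gave a median width difference of -158 to 364.5 bp (main -6.5 bp), with 364.5 without control 1 and 358 without BPA 1. It gave 1 to 7 regions in both controls only, with 7 without BPA 2. No paired analysis was possible because the results come from no test and the labels tie the shared replicate numbers to no common animal or batch. The lists give no read depth, so its limits were not measured, and the cause of these shifts was not tested.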
